A study of Mus musculus with 4 samples.

Results

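Expression of 10 genes of the ADAMTS family of secreted metalloproteases was followed across the cell types of the mouse heart region at midgestation (embryonic day E10.5). The members were taken by symbol (*Adamts1*, *Adamts2*, *Adamts3*, *Adamts4*, *Adamts5*, *Adamts9*, *Adamts10*, *Adamts15*, *Adamts19* and *Adamts20*), and all 10 were found among the 32285 genes of the deposited count matrices. Single-cell RNA sequencing had been carried out on 4 libraries, 2 per genotype. Control embryos (Tie2flfl, libraries 5 and 7) carried floxed *Tie2* (*Tek*) alleles without Cre. *Tie2-cko* embryos (Nfatcre-Tie2flfl, libraries 6 and 8) carried the same floxed alleles together with *Nfatc1*-Cre, a knock-in that recombines in the endocardium, so that other cell types keep an intact *Tie2* unless they descend from endocardium. The mice had a mixed 129 and C57/BL6 genetic make-up, no age or treatment differed between genotypes, and by the methods somite-matched hearts of one litter were used, as many hearts as libraries for each genotype, with replicate libraries sequenced in the same lane. P-values measure the spread between 2 libraries per genotype.

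ADAMTS proteases are released into the extracellular matrix, where individual members cut large proteoglycans such as versican, trim the ends of procollagens, or act on fibrillin-rich microfibrils. In the developing heart the matrix between endocardium and myocardium, the cardiac jelly, is rich in versican and hyaluronan, and its breakdown by versican-cleaving ADAMTS proteases is known to accompany the end of trabecular growth and the remodelling of the cushions. TIMP3 is the best known tissue inhibitor of these enzymes.

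After filtering, 33419 cells were kept (5684 to 10097 per library, median 14878 to 25875 UMIs per cell). Clustering without the 50 listed genes or *Tek* among the variable genes gave 28 clusters, most of which fixed markers joined into 18 named cell types. These included 5 regions of cardiomyocytes (CMs), namely ventricular, trabecular ventricular, outflow tract (OFT), sinus venosus and atrioventricular canal (SV/AVC) and atrial CMs, chamber and cushion endocardial cells (EdCs), and vascular endothelial cells (ECs). Clusters of low UMI counts, with 4014 cells (15.4%, 18.8%, 8.65% and 7.15% of libraries 5 to 8), were left unnamed. One of them, with 1584 cells, was led by chamber EdC markers such as *Irx5* and *Emcn*. It was not part of the 1546 chamber EdCs. Its *Adamts1* level over all its cells was 0.156 UMIs per 10000, against 0.502 over all chamber EdCs. Groups led by *Lhx2* and by *Prlr* also had no name. Libraries 5 and 6 stood apart from 7 and 8 in cell composition. Foregut mesenchyme counted 538 and 563 cells in libraries 5 and 6 against 2 and 5 in libraries 7 and 8, and mesothelial-like mesenchyme, marked by *Dkk2* and *Mab21l2*, counted 143 and 168 against 13 and 3. Between 12 and 29 kept barcodes were shared by any pair of libraries. *Tek* was first checked: in chamber EdCs its level was 0.900 and 1.01 UMIs per 10000 in the controls and 0.128 and 0.152 in *Tie2-cko* (log2 fold change -2.58, SE 0.20, adjusted p = 0.0153, edgeR with Benjamini-Hochberg adjustment), and in cushion EdCs 0.874 and 1.73 against 0.315 and 0.225 (log2 fold change -2.49, adjusted p = 0.0221 by the same test, 0.135 without library 8).

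A level below is the mean over cells of a gene's UMIs per 10000 UMIs of the cell, given per library for libraries with at least 20 cells of the type. The mean ± SD is over those libraries, so n is 4 unless stated. Because the clusters were formed from the same cells, differences between cell types are described without a test. Counts were not corrected for gene length, so levels are not compared between genes.

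*Adamts1* (GRCm38, chr16:85793827-85803113, minus strand) and *Adamts5* (chr16:85856173-85901828, minus strand) are neighbours separated by 53.1 kb, and *Adamts9* lies at chr6:92772699-92943492 on the minus strand. All 3 code for versican-cleaving proteases. *Adamts20* (chr15:94270163-94465418, minus strand) codes for another, known for its part in melanoblast and palate development. The 250 bases before the start of *Adamts1*, *Adamts9* and *Adamts20* are printed here because the first pair was highest in the same cell type and *Adamts20* was highest in a cell type where neither peaked. They are from RefSeq (GRCm38.p6), from which windows of 5 of the 10 members were used. They run at chr16:85803114-85803363, chr6:92943535-92943784 and chr15:94404351-94404600, all on the minus strand. The RefSeq start of *Adamts20* lies inside the gene as GENCODE annotates it. Capitals mark TATAAA and TGACG, a half-site of the cAMP response element, which do not overlap each other.
Adamts1: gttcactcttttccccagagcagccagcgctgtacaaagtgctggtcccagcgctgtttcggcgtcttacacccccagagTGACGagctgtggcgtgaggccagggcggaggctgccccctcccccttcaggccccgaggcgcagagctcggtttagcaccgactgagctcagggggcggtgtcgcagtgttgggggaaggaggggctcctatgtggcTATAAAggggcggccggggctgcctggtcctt
Adamts9: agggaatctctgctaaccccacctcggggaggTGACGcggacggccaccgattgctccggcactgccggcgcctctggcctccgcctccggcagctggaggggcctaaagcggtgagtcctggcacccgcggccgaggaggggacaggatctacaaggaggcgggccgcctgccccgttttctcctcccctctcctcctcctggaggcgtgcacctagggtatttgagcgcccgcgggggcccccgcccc
Adamts20: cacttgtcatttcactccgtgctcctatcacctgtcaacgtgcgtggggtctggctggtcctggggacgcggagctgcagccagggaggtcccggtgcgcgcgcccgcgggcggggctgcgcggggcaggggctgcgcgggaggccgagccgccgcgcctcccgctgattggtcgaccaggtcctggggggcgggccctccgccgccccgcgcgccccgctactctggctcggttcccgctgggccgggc
The *Adamts1* window held TATAAA 32 bases before the start and 1 TGACG, and the *Adamts9* window held 1 TGACG. Searched on both strands, TATAAA occurred in 12.4% and TGACG in 17.8% of the 32851 mouse windows of the same length. TTGTTTAC, a forkhead element found in 1.07% of windows, was not in any of the 3 windows. The GC content was 65.6%, 71.2% and 76.4% with 15, 22 and 32 CpG, against a median of 52.4% and 6 over all windows.

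**Figure D1:**
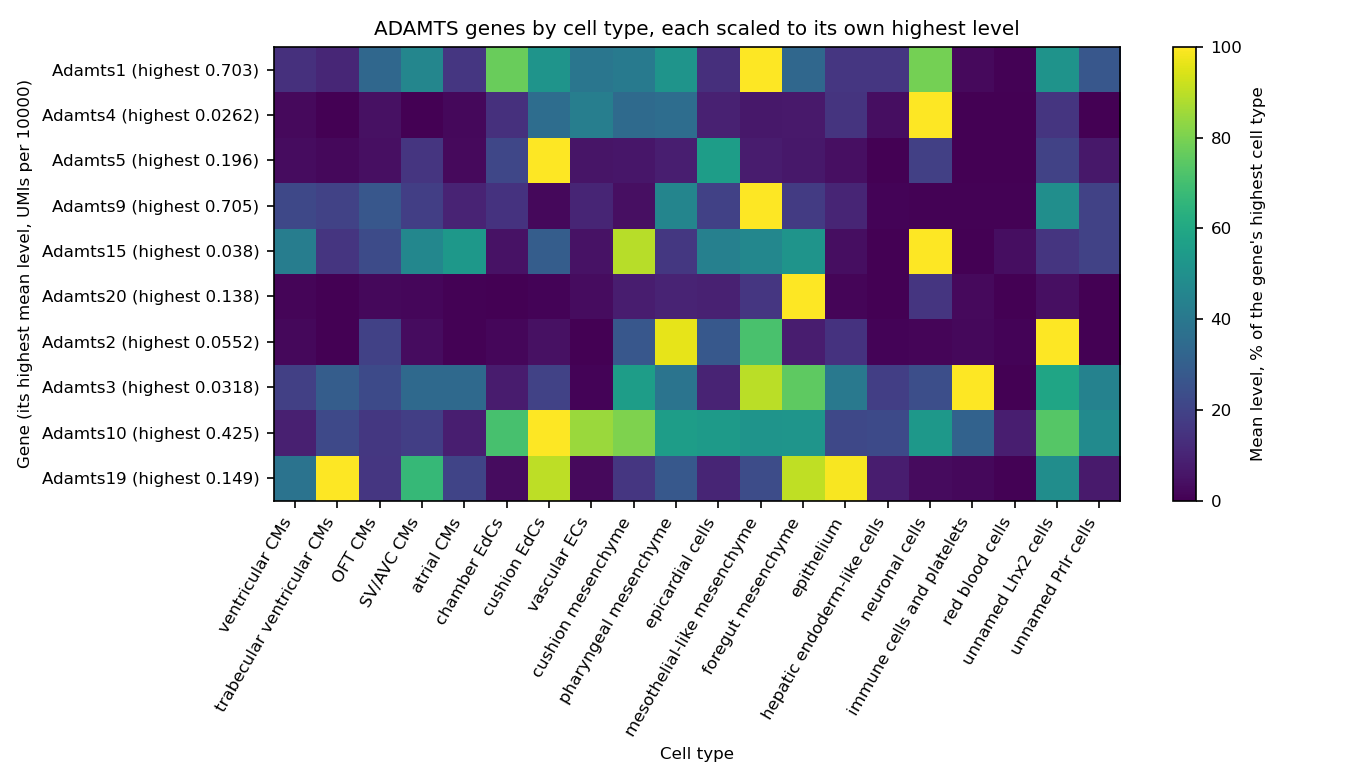
Mean level of each ADAMTS gene (rows) in 20 cell types (columns), as a percentage of that gene's own highest mean level, which is printed beside its name in UMIs per 10000. *Adamts20* is bright in foregut mesenchyme alone, *Adamts5* in cushion EdCs and then epicardial cells, and *Adamts10* across endocardial cells and mesenchyme.

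*Adamts1* was found in every mesenchymal, endothelial and myocardial population, and at a trace in blood. Its highest mean level was in mesothelial-like mesenchyme (0.703 ± 0.0605, n = 2), where it measured 0.660 in library 5 and 0.745 in library 6, and only these libraries had enough cells. Neuronal cells followed at 0.552 and 0.561 in the same libraries. Among the cardiac populations chamber EdCs stood first by the mean over both genotypes (0.542 ± 0.152). They held 0.431 and 0.394 in the controls and 0.699 and 0.643 in *Tie2-cko*. The range of chamber EdCs over libraries overlapped that of pharyngeal mesenchyme, the next in order, at 0.262, 0.596, 0.260 and 0.337 in libraries 5, 6, 7 and 8. Cushion EdCs were at 0.363 ± 0.0467, with 0.358, 0.386, 0.301 and 0.409, a range that also overlapped that of chamber EdCs. In control library 7 SV/AVC CMs held 13.1% of the *Adamts1* UMIs in 548 cells, and chamber EdCs 14.2% in 585 cells. Their median depths were 12867 and 12636 UMIs, so these types lay close in that library.

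Within the myocardium *Adamts1* followed the regions around the inflow and outflow. SV/AVC CMs held 0.323 ± 0.0762 and OFT CMs 0.236 ± 0.0647, whereas atrial CMs held 0.111 ± 0.0119, ventricular CMs 0.0966 ± 0.0119 and trabecular ventricular CMs 0.0743 ± 0.0205. In each library the SV/AVC and OFT values were above those of the other 3 regions. The lowest SV/AVC value was 0.259 and the lowest OFT value 0.175, against a highest atrial value of 0.126. The contrast of SV/AVC with atrial CMs depended on the clustering. At cluster resolution 1.2 a cluster of 771 cells led by *Shox2*, a leading gene of the SV/AVC CMs here, was named atrial CMs. It held 0.373 over all its cells, against 0.114 in the other atrial cluster and 0.279 in the SV/AVC cluster, led by *Bmp2*. Cushion mesenchyme (0.289 ± 0.0445), vascular ECs (0.276 ± 0.0572) and foregut mesenchyme (0.235, n = 2) lay in the same range as the SV/AVC CMs, and epicardial cells lay low at 0.0939 ± 0.0108.

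Red blood cells, in which these proteases were not looked for, served as a measure of background. Whether the background was the same in cell types of other depths was not tested. *Adamts1* reached 0.00393 there, with 40 UMIs in 2487 cells. After thinning each cell to 5000 UMIs, 15.7% to 23.8% of chamber EdCs per library and at most 0.617% of red blood cells had an *Adamts1* UMI. Unthinned, the shares were 37.8% to 63.0% and at most 2.39%, at median depths of 10989 to 27717 and 22811.5 to 60281 UMIs. Thinning left out 9 to 36 chamber EdCs and 8 to 40 red blood cells per library.

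**Figure D2:**
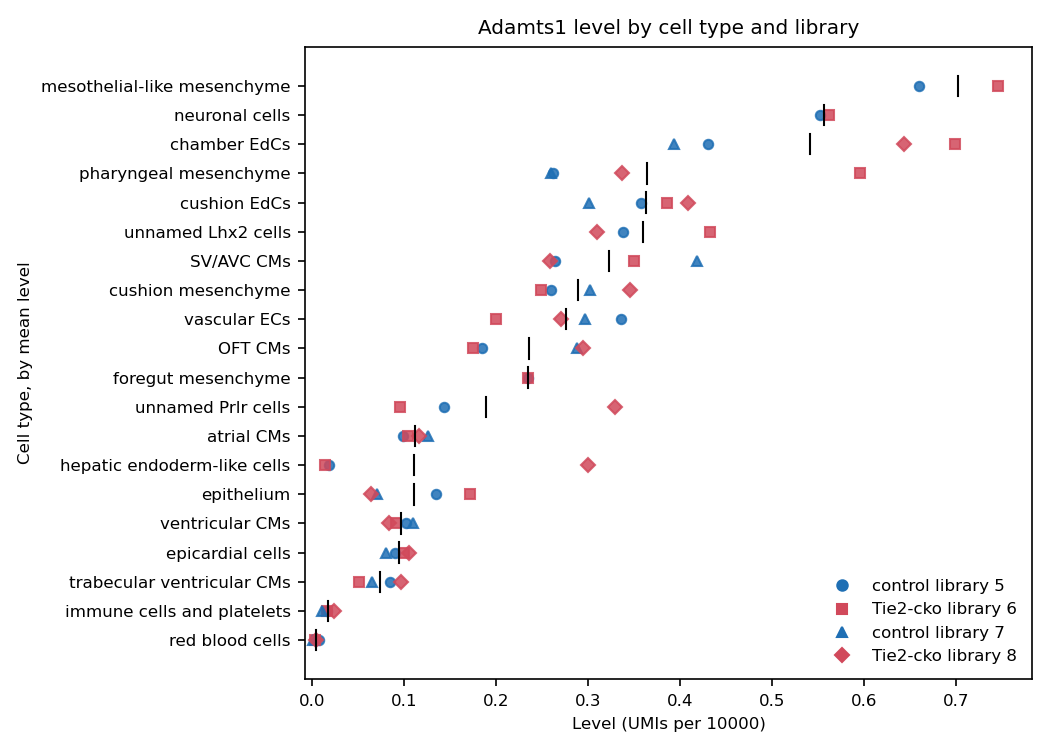
*Adamts1* level (UMIs per 10000, horizontal axis) in 20 cell types ordered by mean level. Each point is a library (blue control, red *Tie2-cko*) and each vertical bar the mean; in chamber EdCs the *Tie2-cko* points at 0.699 and 0.643 lie to the right of the control points at 0.431 and 0.394.

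*Adamts9*, a versican-cleaving member required for early development, also peaked in mesothelial-like mesenchyme, at 0.647 in library 5 and 0.763 in library 6. Pharyngeal mesenchyme held 0.258, 0.524, 0.216 and 0.287 in libraries 5 to 8, and a group of cells led by *Lhx2* that no marker list named held 0.424, 0.341 and 0.283 in libraries 5, 6 and 8. Of the myocardial regions, OFT CMs held 0.192 ± 0.0238, ventricular CMs 0.154 ± 0.0139, trabecular ventricular CMs 0.139 ± 0.0335 and SV/AVC CMs 0.132 ± 0.0209. Epicardial cells lay among them at 0.135 ± 0.0112. Atrial CMs were lower, with 0.0605 to 0.0777 over libraries, below the lowest value of each of the other 4 regions. At cluster resolution 1.2 the SV/AVC cluster held 0.184 and the *Shox2* cluster, then named atrial CMs, 0.0622. The SV/AVC level of *Adamts9* thus depended on the clustering.

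In the endocardium *Adamts9* marked the chamber and was low in the cushions. Chamber EdCs held 0.104 ± 0.0117, cushion EdCs 0.0156 ± 0.00951 and cushion mesenchyme 0.0297 ± 0.00145. In each library the chamber value was above the cushion value, with a lowest chamber level of 0.0940 and a highest cushion EdC level of 0.0246. The red blood cell level was 0.00347. *Adamts9* overlaps 3 annotated RNA genes, so a part of its counts is uncertain. Within the ventricular CMs the cluster led by *Myh7* and *Ttn* had 0.181 and that led by *Myl2* and *Pln* 0.136.

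*Adamts5*, which cleaves aggrecan and versican, had its highest level in cushion EdCs: 0.135 and 0.252 in the controls and 0.247 and 0.149 in *Tie2-cko*. The genotypes overlapped fully, since the lowest and the highest values both came from control libraries. Epicardial cells were second, at 0.0952, 0.102, 0.103 and 0.137 in libraries 5 to 8, a range that just met that of cushion EdCs. Chamber EdCs followed at 0.0420 ± 0.00934, below every epicardial value, and cushion mesenchyme, which arises from cushion endocardium, held 0.0118 ± 0.00326. Ventricular CMs were at 0.00645 ± 0.00166, and red blood cells at 0.000417.

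The other versican-cleaving members were rarer. *Adamts20* was concentrated outside the heart: foregut mesenchyme held 0.109 in library 5 and 0.167 in library 6, with 82 and 199 UMIs, and mesothelial-like mesenchyme, the next, 0.0143 and 0.0295. Of the cardiac types epicardial cells (0.0125 ± 0.00337) and cushion mesenchyme (0.0112 ± 0.00293) were highest, and ventricular CMs had 46 UMIs in 6609 cells. *Adamts15* (chr9:30899155-30922452, minus strand) was highest in neuronal cells by mean level, but on 4 UMIs; next was cushion mesenchyme at 0.0394, 0.0329, 0.0366 and 0.0272. Its lowest value in cushion mesenchyme was above the highest in atrial CMs (0.0241), the next in order. Epicardial cells, lower by mean level, overlapped cushion mesenchyme through library 6, at 0.0384 on 18 UMIs. They held 0.00711, 0.00638 and 0.0145 in libraries 5, 7 and 8. *Adamts4* (chr1:171250421-171260637, plus strand), known as an aggrecanase, has an overlapping annotation, so its counts are uncertain, and it gave 198 UMIs in all kept cells. Its highest level, 0.0262 in neuronal cells, rested on 13 UMIs, and vascular ECs, cushion EdCs, pharyngeal and cushion mesenchyme lay between 0.00911 and 0.0112. No UMI of it was found in 2487 red blood cells.

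**Figure D3:**
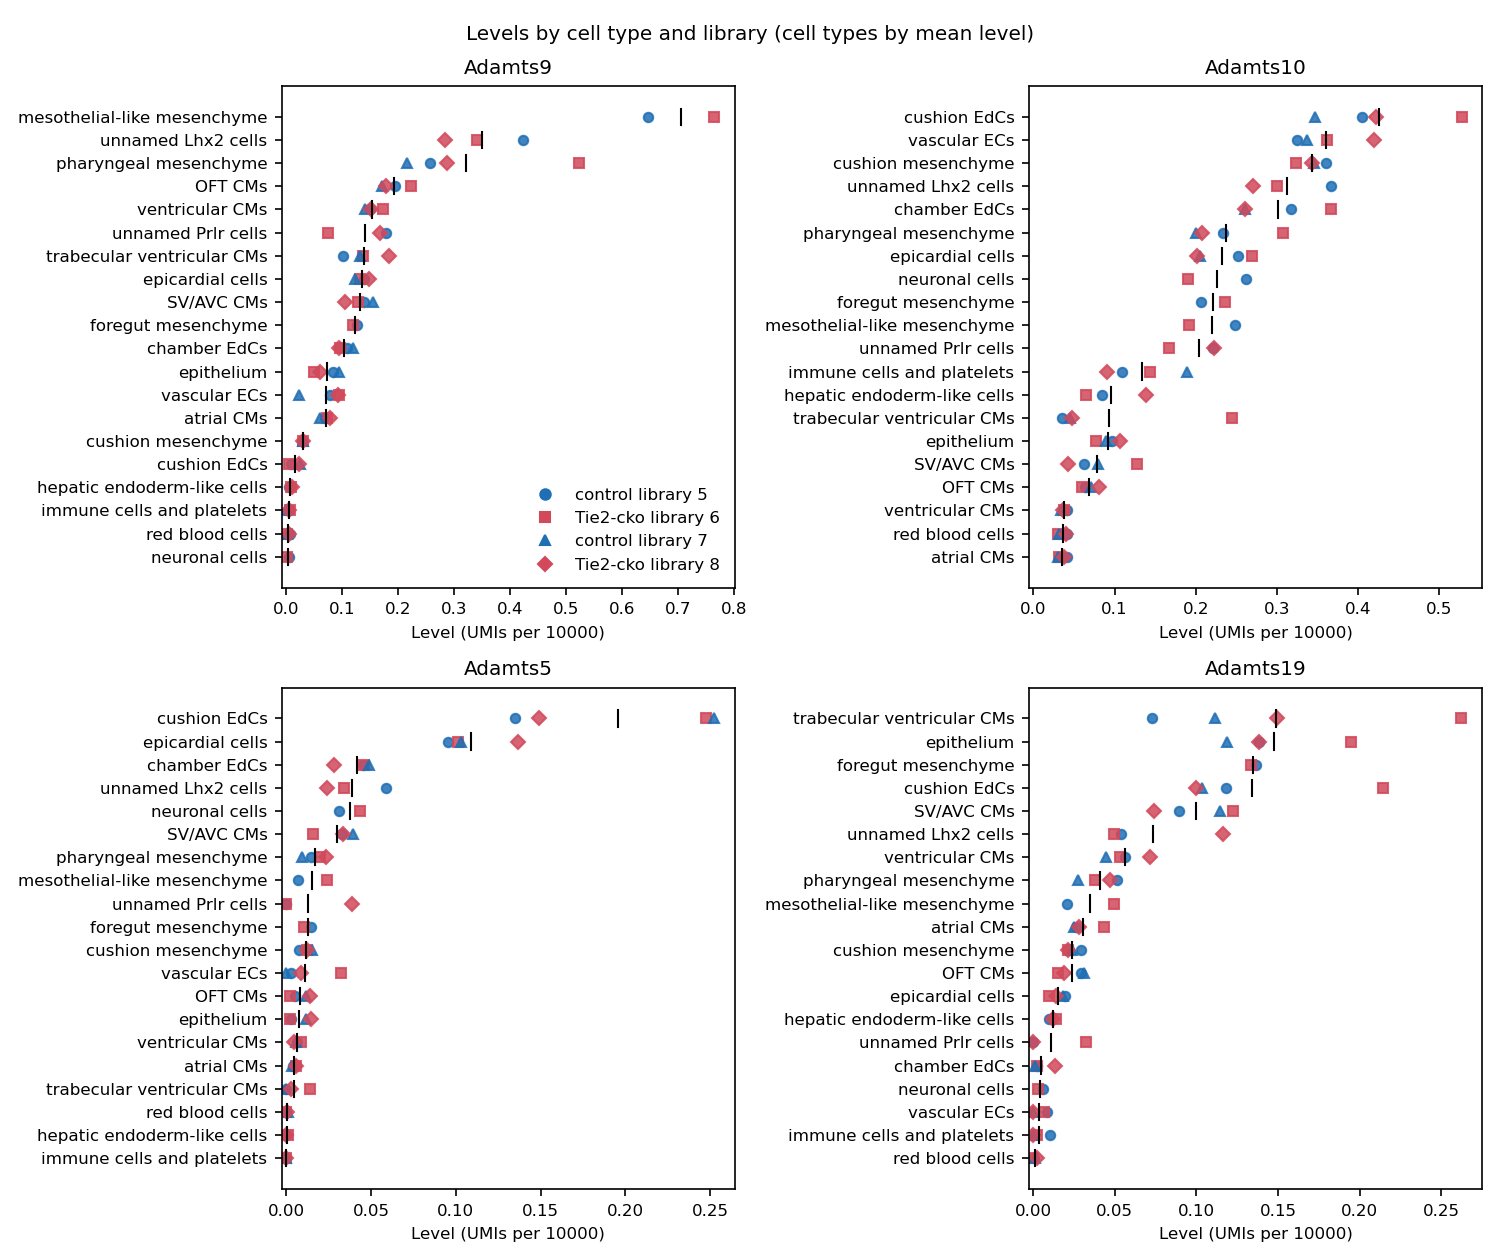
Levels (UMIs per 10000, horizontal axes with separate scales) of *Adamts9*, *Adamts10*, *Adamts5* and *Adamts19* in 20 cell types ordered by mean level; points are libraries (blue control, red *Tie2-cko*) and vertical bars means. *Adamts9* is low in cushion EdCs (0.0156), where *Adamts5* (0.196) and *Adamts10* (0.425) have their highest means.

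The procollagen N-proteinases were low, with 497 UMIs of *Adamts2* and 663 of *Adamts3* in all kept cells. *Adamts2* (chr11:50602084-50807573, plus strand), which trims fibrillar procollagens, was highest in the *Lhx2* cells at 0.0637, 0.0786 and 0.0234 in libraries 5, 6 and 8. Pharyngeal mesenchyme held 0.0422, 0.111, 0.0339 and 0.0254, and these ranges overlapped. Within cushion mesenchyme it was almost confined to the cluster led by *Stmn4* and *Postn*, at 0.0705, against 0.00188 and 0.00120 in the other 2 clusters. *Adamts3* (chr5:89677087-89883334, minus strand), which acts with CCBE1 on VEGF-C, was found in immune cells and platelets (0.0318 ± 0.0226, 76 UMIs), although at 0 UMIs in the 26 such cells of library 7, and in mesothelial-like mesenchyme (0.0285, n = 2). Ventricular CMs, at a level of 0.00607 ± 0.00108, held 15.4% to 30.3% of its UMIs per library. It too was higher in the *Stmn4* and *Postn* cluster of cushion mesenchyme (0.0409 against 0.00927 and 0.0154). Both genes overlap short predicted loci, so a part of their counts is uncertain.

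*Adamts10* (chr17:33524204-33553782, plus strand), which binds fibrillin and is mutated in a human disorder of short stature and lens position, was an endothelial and mesenchymal gene. Cushion EdCs held 0.405 and 0.346 in the controls and 0.528 and 0.422 in *Tie2-cko*, vascular ECs 0.361 ± 0.0426 and cushion mesenchyme 0.343 ± 0.0148. Chamber EdCs were at 0.301 ± 0.0508, and their range overlapped that of cushion EdCs. Epicardial cells held 0.232 ± 0.0340. In contrast, ventricular CMs (0.0376 ± 0.00268) and atrial CMs (0.0350 ± 0.00517) were at about the level of red blood cells (0.0361 ± 0.00542), and OFT CMs at 0.0689 ± 0.00943 were above it in every library. Red blood cells held 0.831% to 5.18% of the *Adamts10* UMIs per library but 0.028% to 0.797% of those of *Adamts1*. The source of their *Adamts10* counts was not tested, and whether the counts in ventricular and atrial CMs were background is not shown. The *Stmn4* and *Postn* cluster, where *Adamts2* was high, was the lowest of the cushion mesenchyme clusters for *Adamts10*, at 0.230 against 0.367 and 0.382.

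*Adamts19* has been linked to heart valve disease, and its substrate is not established. It was spread over unrelated types with overlapping ranges: trabecular ventricular CMs at 0.0728, 0.262, 0.112 and 0.149 in libraries 5 to 8, epithelium at 0.138, 0.195, 0.119 and 0.139, and foregut mesenchyme at 0.136 and 0.133 in libraries 5 and 6. The trabecular value of library 6 came from 25 cells. With levels pooled over the cells of each library, trabecular ventricular CMs held 0.0997. Cushion EdCs held 0.134 ± 0.0541 as mean levels. Chamber EdCs held 0.00468 ± 0.00557 on 13 UMIs, so that the endocardial expression was nearly restricted to the cushion cells. In each library the cushion value was above the chamber value, with a lowest cushion level of 0.0999 and a highest chamber level of 0.0130. Among the epithelial clusters the one led by *Nepn*, *Klf5* and *Sox2* was highest (0.211 against 0.135 and 0.0681), and it held 341 of its 344 cells in libraries 5 and 6. SV/AVC CMs (0.0999 ± 0.0224) were above ventricular CMs (0.0565 ± 0.0112).

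Because ventricular CMs were the most numerous cells, with 6609 in all, they carried a large share of a member's UMIs even at a low level. They held 29.6% to 44.4% of the *Adamts9* UMIs per library and 23.8% to 47.4% of those of *Adamts19*, but 11.5% to 21.1% of those of *Adamts1*. Chamber EdCs held 9.41% to 14.2% of the *Adamts1* UMIs, and cushion mesenchyme 11.4% to 30.2% of the *Adamts10* UMIs. Cushion EdCs and epicardial cells held 18.0% to 40.3% and 18.9% to 42.4% of the *Adamts5* UMIs. These shares move with the number of cells of each type captured, which differed between libraries.

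Among the genes whose pattern over the 18 named cell types was most like that of each member, by Pearson's correlation of log2(level + 0.1) across those types, with 4756 genes compared, the following are given. *Adamts20* was closest to *Msc* (r = 0.95), *Hoxa7* and *Cxcl13*, all highest in foregut mesenchyme. *Adamts10* was close to *Hook3* (r = 0.93) and *Cyfip1*, and *Adamts9* to *Col12a1* (r = 0.86), *Mab21l2* and *Pcolce*, the last 3 highest in mesothelial-like mesenchyme. *Adamts1* was close to *Rara* (r = 0.84) and *Tcaf1*, *Adamts5* to *Spats2l*, *Krt79* and *Heg1* (r = 0.78 each), and *Adamts19* to *Cdo1* (r = 0.77), *Akap9* and *Nbeal1*. All points share the same 4 libraries, and 3 of the types rest on libraries 5 and 6 alone, so these values describe the pattern only.

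Genotype was then compared in 5 classes on summed counts per library with edgeR. Of the members, 4 passed the count filter in chamber EdCs (*Adamts1*, *Adamts5*, *Adamts9* and *Adamts10*), 5 in cushion EdCs (also *Adamts19*), 9 in CMs of all regions, 10 in cushion mesenchyme and 8 in epicardial cells. No member was called at an adjusted p under 0.05 in any class, where the shares of all genes called were 0.0087% in chamber EdCs, 0.0445% in cushion EdCs, 0% in CMs, 0% in cushion mesenchyme and 0.0335% in epicardial cells. DESeq2 called 0 members in each class as well, beside 0.261%, 0.0623%, 0.0128%, 0.071% and 0.0586% of all genes in the same order. *Adamts1* was the member with an unadjusted p under 0.05 in chamber EdCs, where 7.37% of all genes had one, and in epicardial cells, where 1.11% did; in cushion EdCs, CMs and cushion mesenchyme no member had one, beside 2.06%, 0.448% and 0.994% of all genes.

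*Adamts1* in chamber EdCs was 0.412 ± 0.0263 in controls (325 and 410 UMIs) and 0.671 ± 0.0395 in *Tie2-cko* (353 and 483 UMIs). On summed counts per 10000 UMIs *Adamts1* was 1 of the 4 members tested whose genotypes did not overlap, where 38% of all genes tested in these cells did not. The log2 fold change was 0.56 (SE 0.15), with an adjusted p of 0.445 by edgeR and 0.750 by DESeq2 after Benjamini-Hochberg adjustment over 11493 genes. With a term for libraries 5 and 6 against 7 and 8 the fold change was again 0.56 and the adjusted p by edgeR was 0.00323, in a fit that called 4.99% of all genes and no other member; in the other 4 classes the term gave no member called, beside 0.73% of all genes in cushion EdCs, 0.442% in CMs, 0.797% in cushion mesenchyme and 0.544% in epicardial cells. For *Adamts1* in chamber EdCs the adjusted p by the term and that by DESeq2 were the lowest and the highest of 10 alternatives. Leaving out each library in turn gave log2 fold changes of 0.39 to 0.71, the lowest without library 8.

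Other cell markers moved with genotype in the same cells. The 5 red blood cell markers, all detected in every library, summed to 77.0 and 32.8 UMIs per 10000 in control chamber EdCs and to 12.7 and 12.02 in *Tie2-cko*, while *Adamts1* in red blood cells was 0.00393. This drop was not particular to chamber EdCs. The same markers summed to 62.0 and 33.4 against 11.5 and 10.7 in cushion EdCs. In CMs they gave 44.0 and 19.5 against 12.9 and 7.57, and in cushion mesenchyme 57.9 and 29.1 against 10.4 and 9.63. The 8 cardiomyocyte markers summed to 12.7 and 16.7 in controls and 9.26 and 18.1 in *Tie2-cko*, which overlapped. The 6 chamber EdC markers summed to 16.6 and 15.04 against 18.7 and 16.5, which also overlapped. The 7 cushion mesenchyme markers, whose cells had an *Adamts1* level of 0.289, were slightly higher in *Tie2-cko* (1.94 and 2.13 against 1.76 and 1.82). Neuronal markers (0.215 and 0.264 against 0.106 and 0.155), pharyngeal mesenchyme markers (0.200 and 0.216 against 0.156 and 0.133) and vascular EC markers were higher as well. Macrophage and megakaryocyte markers were lower. The part of these lists in the result was not tested.

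In cushion EdCs *Adamts1* was 0.358 and 0.301 in controls and 0.386 and 0.409 in *Tie2-cko*. The genotypes did not overlap for 2 of the 5 members tested there, *Adamts1* and *Adamts10*, beside 28.6% of all genes, and the *Adamts1* log2 fold change of 0.26 (SE 0.16) had an adjusted p of 1.00 by edgeR. The difference between the chamber and cushion effects was 0.30 on the log2 scale (SE 0.15, adjusted p = 0.530 by edgeR), in a fit that called 0.675% of all genes, so the effect was not shown to differ between these EdCs. In the same test *Adamts19* had an unadjusted p under 0.05 (adjusted p = 0.488 by edgeR), on 13 UMIs in all chamber EdCs, as had 9.76% of all genes. Epicardial cells gave 0.0905 and 0.0805 in controls and 0.0994 and 0.105 in *Tie2-cko*, a log2 fold change of 0.48 (SE 0.18, adjusted p = 1.00 by edgeR). Red blood cell markers there summed to 46.2 and 28.4 in controls and 10.6 and 6.89 in *Tie2-cko*. On summed counts 6 of the 8 members tested there did not overlap between genotypes, beside 24.2% of all genes. In CMs and in cushion mesenchyme the genotypes overlapped, and the log2 fold changes were -0.21 (SE 0.18) and 0.14 (SE 0.19). Pharyngeal mesenchyme, which was not among the tested classes, also held higher *Adamts1* in *Tie2-cko* (0.596 and 0.337 against 0.262 and 0.260), and its library 6 value, from 77 cells, was the highest of the 4 for *Adamts2*, *Adamts9* and *Adamts10* as well.

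**Figure D4:**
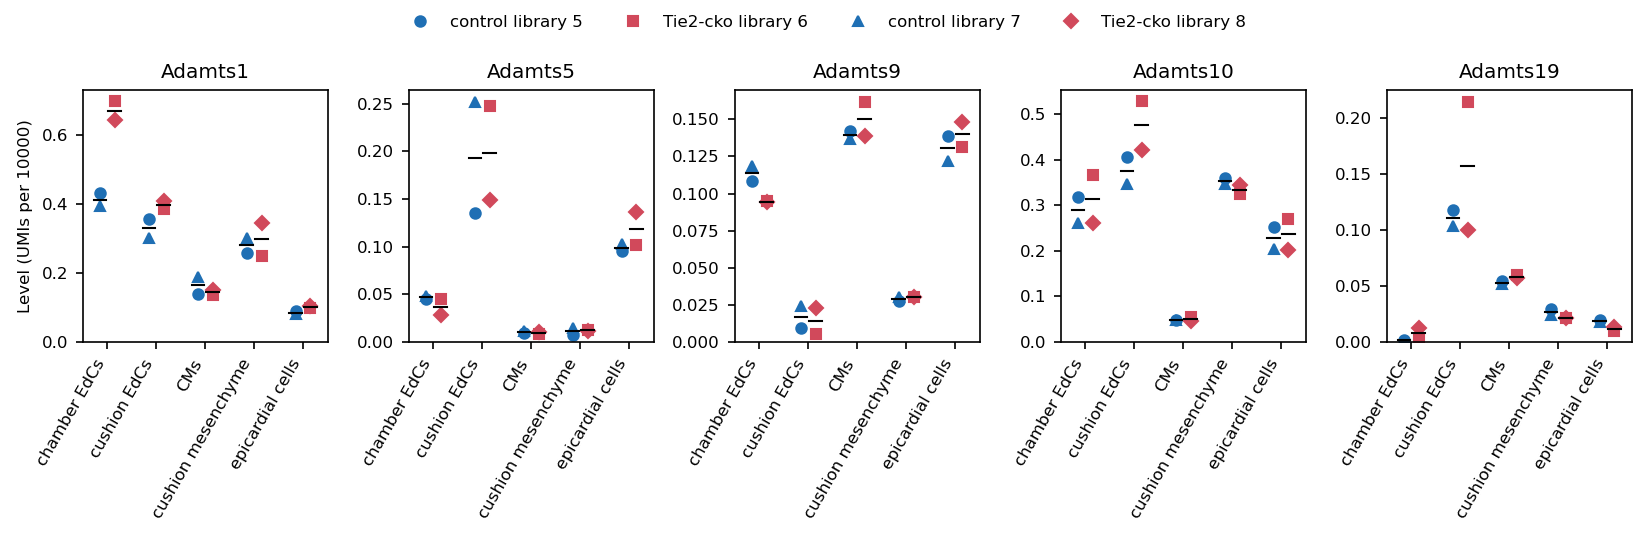
Levels (UMIs per 10000, vertical axes from 0 with separate scales) of 5 ADAMTS genes in the 5 tested classes. Points are libraries (blue control, red *Tie2-cko*) and horizontal bars genotype means; the *Adamts1* points separate by genotype in chamber EdCs, and *Adamts5* points in cushion EdCs span 0.135 to 0.252 in the controls alone.

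The other members tested in endocardium gave smaller or less certain values. *Adamts5* in chamber EdCs was 0.0456 and 0.0487 in controls and 0.0456 and 0.0282 in *Tie2-cko* (log2 fold change -0.31, SE 0.38), and in cushion EdCs the log2 fold change was -0.32 (SE 0.30). *Adamts9* in chamber EdCs was 0.109 and 0.118 against 0.0952 and 0.0940, with no overlap of the mean levels, but the summed counts overlapped and the log2 fold change was 0.00 (SE 0.19). *Adamts9* in cushion EdCs, with 4 to 16 UMIs per library, gave -0.37 (SE 0.56). *Adamts10* in cushion EdCs did not overlap (0.405 and 0.346 against 0.528 and 0.422), with a log2 fold change of 0.16 (SE 0.16), and *Adamts19* there gave -0.11 (SE 0.31), with library 6, at 0.214, above the other 3, which held 0.0999 to 0.118. Every one of these had an adjusted p of 0.903 or more by edgeR.

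In cushion mesenchyme 6 of the 10 members tested did not overlap between genotypes on summed counts, beside 25.2% of all genes, and in CMs 1 of 9 did not, beside 17.3%. Of these, *Adamts10* in cushion mesenchyme held 0.360 and 0.346 in controls and 0.324 and 0.343 in *Tie2-cko*, on 295 to 538 UMIs per library, a small difference. The others had low levels: *Adamts2* held 0.0130 and 0.0106 in controls and 0.0182 and 0.0185 in *Tie2-cko*, on 17 to 35 UMIs per library, and *Adamts3* held 0.0276 and 0.0160 against 0.0150 and 0.0121, on 15 to 27. The controls were lower for *Adamts2* and higher for *Adamts3*. In epicardial cells *Adamts5* was 0.0952 and 0.103 in controls and 0.102 and 0.137 in *Tie2-cko*, which overlapped as mean levels (log2 fold change 0.50, SE 0.24, adjusted p = 1.00 by edgeR). The median log2 fold change over the members tested was 0.00 in chamber EdCs, -0.11 in cushion EdCs, -0.02 in CMs, 0.07 in cushion mesenchyme and 0.49 in epicardial cells, beside 0.00 to 0.01 over all genes in each class. Foregut and mesothelial-like mesenchyme, where *Adamts20*, *Adamts9* and *Adamts1* were highest, had 1 library per genotype with enough cells and no genotype comparison was made.

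**Figure D5:**
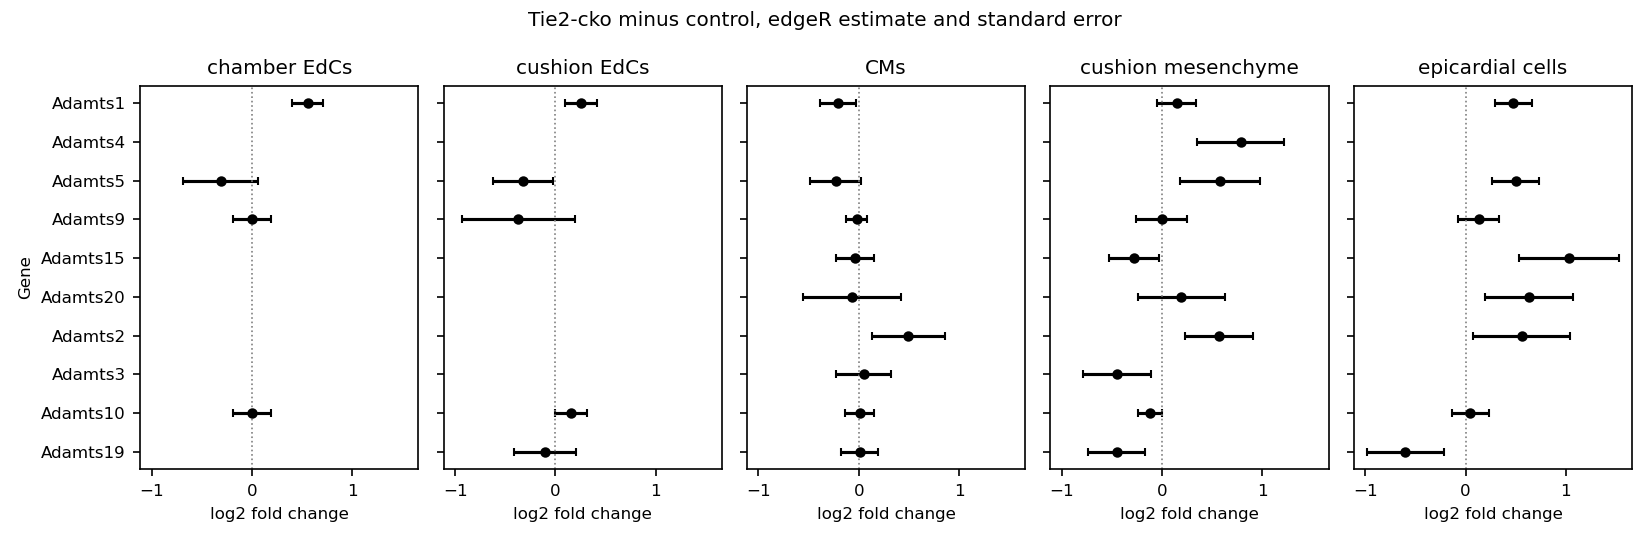
edgeR log2 fold changes, *Tie2-cko* minus control (horizontal axis), for the members that passed the count filter in each of 5 classes; points are estimates and bars standard errors, and the dotted line marks 0. The *Adamts1* estimate in chamber EdCs, 0.56, has a standard error of 0.15, and no estimate passed the adjusted threshold.

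The partners of these proteases were read from fixed lists. In chamber EdCs 3 of 9 other ADAMTS, 0 of 6 ADAMTS-like, 3 of 4 TIMP inhibitor, 4 of 7 proteoglycan and link, 5 of 5 procollagen, 2 of 2 fibrillin, 2 of 3 VEGF-C processing and 3 of 4 maturation and uptake genes passed the count filter, and edgeR called 0 of them. Of these, 1 inhibitor, 2 proteoglycan or link genes and 1 procollagen gene had an unadjusted p under 0.05, beside 7.37% of all genes. DESeq2 called 1 gene, *Vcan*, beside 0.261% of all genes. In the other 4 classes edgeR and DESeq2 each called 0 of these genes. An unadjusted edgeR p under 0.05 was found for 1 procollagen gene in CMs, beside 0.448% of all genes. The same held for 1 other ADAMTS gene in epicardial cells, beside 1.11%. The term for libraries 5 and 6 changed calls: with it edgeR called 5 of these genes in chamber EdCs, namely *Hapln1* (adjusted p = 0.00518), *Col5a1* (0.0132), *Vegfc* (0.0308), *Timp3* and *Vcan*, and also *Timp3* in cushion EdCs (0.0335) and *Col1a1* (0.0417) and *Col1a2* (0.00841) in CMs. The same fits called 4.99% of all genes in chamber EdCs, 0.73% in cushion EdCs and 0.442% in CMs. *Hapln1* was 4.15 and 4.60 in controls and 3.88 and 3.27 in *Tie2-cko*, and *Col5a1*, a fibrillar procollagen gene, 0.128 and 0.147 against 0.217 and 0.227. *Timp3* was 0.191 and 0.213 in controls and 0.212 and 0.385 in *Tie2-cko*, which overlapped (log2 fold change 0.66, SE 0.23, adjusted p = 0.610 by edgeR, 0.00293 with the term for libraries 5 and 6). The *Timp3* value rested on library 8: without it the log2 fold change was 0.31 (adjusted p = 0.820 by edgeR), and without library 6 it was 0.92 (adjusted p = 0.0475 by edgeR). *Vcan*, the versican gene, was 0.611 and 0.583 in controls and 0.867 and 1.27 in *Tie2-cko* (log2 fold change 0.92, SE 0.20, adjusted p = 0.285 by edgeR and 0.0304 by DESeq2, with 1.4e-05 to 0.411 over 10 alternatives). The *Vcan* fold change was 0.66 higher in chamber than in cushion EdCs on the log2 scale (SE 0.13, adjusted p = 0.0185 by edgeR), and that of *Hapln1*, which links versican to hyaluronan, was lower by 0.46 (SE 0.07, adjusted p = 0.0069 by edgeR); these were the listed genes called in that test. *Vcan* was highest in cushion mesenchyme (12.98) and cushion EdCs (8.05), and *Timp3* in cushion mesenchyme (0.772).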

How the data were processed

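Single cells from E10.5 mouse heart regions had been captured with 10x chemistry in 4 libraries. The authors aligned reads to mm10, and the deposited matrices hold UMI counts per gene and barcode, written by Cell Ranger 6.1.2 per the file headers. Deposited barcodes numbered 8877 to 18488 and UMIs 169361996 to 259775540 per library; every barcode had at least 500 UMIs. Cells with at least 500 genes, 1000 UMIs and at most 10% mitochondrial UMIs were kept. Scrublet scores (scanpy 1.11.5) removed the top 0.8% of barcodes per 1000 cells as doublets, 285 to 982 per library.

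Cells were clustered in Seurat 5.3.0 (2000 variable genes, 30 components, 20 neighbours, resolution 0.8). Clusters were named by marker lists; the conditions for a name, such as at least 3 markers detected and a median UMI count above 0.333 of the library's, were chosen with the clusters in view. The alternatives were DESeq2, no count filter, a term for libraries 5 and 6, each library left out, a stricter cell filter (1500 genes, 5% mitochondrial UMIs), doubled doublet removal, resolution 1.2 and pooled levels. Names are rebuilt and may differ from the study's. Genotypes were compared on UMI counts summed per library and class in edgeR 4.0.16 (quasi-likelihood, TMM, filterByExpr, Benjamini-Hochberg adjustment, R 4.3.3), checked on simulated data, with DESeq2 1.42.0 as an alternative. The chamber and cushion effects were compared in a fit with a library term. Genes open to naming were *Tek*, the members, the genes of the partner lists, and the 3 genes most like each member with a mean level of at least 0.1 in its highest cell type, among genes reaching 0.5 in some type; some genes this rule picks are not reported here. An exact permutation test of 2 against 2 libraries cannot go below p = 0.333. The members and lists were chosen with earlier results of these data known. By the methods the hearts came from one litter, as many as libraries, and replicate libraries were sequenced in the same lane; which control and *Tie2-cko* libraries were matched is not given in the sources used here, so the split of libraries 5 and 6 from 7 and 8 is one of cell composition and not a stated batch. Shares and levels carry counting error and the loss in capture; the self-tests are not quoted.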

Additional observations from a re-analysis of the deposited data

Results flagged for a closer look

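*Hapln1* and *Vcan* were singled out because their genotype effects differed between chamber and cushion EdCs in the edgeR test of that difference with Benjamini-Hochberg adjustment. The *Hapln1* log2 fold change was more negative in chamber EdCs (difference -0.46), and that of *Vcan* more positive (difference 0.66).

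*Adamts10* and *Adamts19* moved in opposite directions in a pair of classes without overlap of the mean levels per library. *Adamts10* was higher in *Tie2-cko* by 0.0990 UMIs per 10000 in cushion EdCs and differed by -0.0194 in cushion mesenchyme. *Adamts19* differed by 0.00529 in CMs and by -0.00536 in cushion mesenchyme, there on 18 to 38 UMIs per library. On summed counts the genotypes overlapped for *Adamts19* in CMs. Of all genes tested, 28.6% in cushion EdCs, 17.3% in CMs and 25.2% in cushion mesenchyme did not overlap on summed counts. For both genes the difference was not tested.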

How the results depend on the processing

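Counts of genes past the adjusted threshold moved widely with the model. In chamber EdCs the count was 1, against 30 with DESeq2, 189 with no filter on low counts and 573 with a term for libraries 5 and 6. In cushion EdCs it was 5, against 28 with no filter and 82 with the term. CMs gave 0, against 2 with DESeq2 and 69 with the term; cushion mesenchyme gave 0, against 9, 24 with no filter, and 101. Epicardial cells gave 4, against 7 with DESeq2, 65 with the term, and 0 both with no filter and with doublet removal doubled. The difference between chamber and cushion effects gave 80, against 211 with no filter. Leaving out each library in turn gave 26 to 184 genes in chamber EdCs, 1 to 48 in cushion EdCs, 0 to 2 in CMs, 0 to 11 in cushion mesenchyme and 6 to 63 in epicardial cells.

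Leaving out each library in turn changed the sign of some log2 fold changes. *Adamts1* ranged from -0.40 to 0.023 in CMs, positive without library 7, and from -0.088 to 0.35 in cushion mesenchyme, negative without library 8 and without library 5 (-0.03). *Adamts5* ranged from -0.66 to 0.20 in chamber EdCs, positive without library 7, and from -0.74 to 0.091 in cushion EdCs, positive without library 7 and without library 8 (0.05). In cushion EdCs *Adamts9* ranged from -1.21 to 0.13, positive without library 7 and without library 6 (0.05), and *Adamts19* from -0.63 to 0.34, positive without library 8. The *Adamts1* fold change in chamber EdCs stayed positive under the 10 alternatives, with adjusted p-values of 0.00323 to 0.750. With levels pooled over the cells of each library, 6 of the 10 members had the same highest cell type. *Adamts1* moved to neuronal cells, *Adamts2* to pharyngeal mesenchyme, *Adamts15* to cushion mesenchyme and *Adamts19* to epithelium. Over the 8 alternatives for levels, 6 to 9 members kept their highest cell type. *Adamts19* also moved to epithelium at resolution 1.2, where trabecular ventricular CMs counted 2160 cells instead of 283 and held a level of 0.0806. At that resolution the *Shox2* cluster was named atrial CMs, and the order of SV/AVC and atrial CMs for *Adamts1* depended on its name. The cause of these changes was not tested. No paired analysis was possible because the labels give the genotypes no shared replicate numbers; the term for libraries 5 and 6, which groups 1 control with 1 *Tie2-cko* library, follows cell composition and not a pairing in the labels. Depth limits *Adamts4*, with 198 UMIs in all, most.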
